A study of Saccharomyces cerevisiae with 16 samples.

Results

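Binding of the galactose activator Gal4 in yeast that lacks SEF1 was compared, region by region, with its binding in yeast that keeps SEF1. The comparison used every stretch between neighbouring genes that carries the same left and right flanking gene in both libraries, which gave 4383 of the 4897 regions listed for any library of the study. Binding was read out with calling cards, in which a factor fused to Sir4 directs the Ty5 retrotransposon to insert near the factor's DNA sites, so that insertions per region stand for occupancy. The study holds 16 such libraries of zinc cluster factors, each made from 1 sample, and 2 of them enter the main comparison. Per the labels, the Gal4 library came from strain BY4741 lacking SIR4 and GAL4, and the sef1Δ library from a strain named BY4744 lacking SIR4, GAL4 and SEF1, so that any effect of the named strain and of the deletion cannot be told apart. The labelled names run in sequence from BY4742 to BY4745 over the 4 deletion strains, and whether these are separate backgrounds is not known here. Both libraries carried the Gal4 fusion on a plasmid, driven by the ADH1 promoter in place of the GAL4 promoter, together with a second plasmid in which the GAL1/10 promoter drives Ty5. Side values are given for the Gal4 fusion in the yrm1Δ strain (BY4745) and the hmo1Δ strain (BY4742), which lack SIR4, GAL4 and the named gene, and at some regions for the leu3Δ strain (BY4743), which lacks SIR4, GAL4 and LEU3. Libraries of 11 other factors, each with its own Sir4 fusion in place of Gal4, are used where named.

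Gal4 is a zinc cluster factor that activates the genes of galactose uptake and breakdown. Its inhibitor Gal80 holds it inactive until the sensor Gal3 binds Gal80 in the presence of galactose. Sef1 is another zinc cluster factor, little studied in budding yeast, where it was found as a suppressor of the loss of RPM2, a gene of mitochondrial RNA processing. In the pathogen Candida albicans the protein of the same name activates iron uptake genes. Aconitase needs an iron-sulfur cluster, and the citric acid cycle feeds electrons to the respiratory chain in mitochondria.

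The Gal4 library held 33645 insertions and the sef1Δ library 13882, of which 59.1% and 61.1% lay in the shared regions. A single insertion was thus worth 2.97 per 100000 in the Gal4 library and 7.20 per 100000 in the sef1Δ library. A count of 0 allowed up to 8.92 and 21.6 per 100000. With 1 library per group no replicate error exists, intervals are 95% intervals of counting error alone, and each test compares the libraries and not the genotypes. Ratios are the share of the sef1Δ library's insertions over the share of the Gal4 library's insertions.

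In the sef1Δ library the fusion took a smaller share at the galactose genes and a larger share at a set of other promoters, among them those of ACO1, IDH2 and FUM1 of the citric acid cycle and that of ISU1. A region was tested where the libraries summed to 10 or more insertions, which left 252 regions. Of these, 28 (11.1%) were higher in sef1Δ and 10 (3.97%) were lower, 15.1% in either direction, at an adjusted p of 0.05 or less (two-sided Fisher's exact test, Benjamini-Hochberg adjusted over the tested regions). The median ratio over the tested regions was 1.18, with quartiles of 0.808 and 1.78, and 157 ratios lay above 1 against 95 below it. This median is a shift of 0.24 on the log2 scale, and over the 122 regions with at least 10 insertions in each library it was 0.36. Scaled to the latter median, 17 regions were higher and 21 lower, all 17 and 10 of the 21 being regions that passed in the same direction before scaling. Among the 38 regions that passed, SRP40/PTR2 was the only one whose direction turned with that scaling. By size alone, 51 tested regions (20.2%) had a ratio of at least 2 and 26 (10.3%) a ratio of 0.5 or less.

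**Figure D1:**
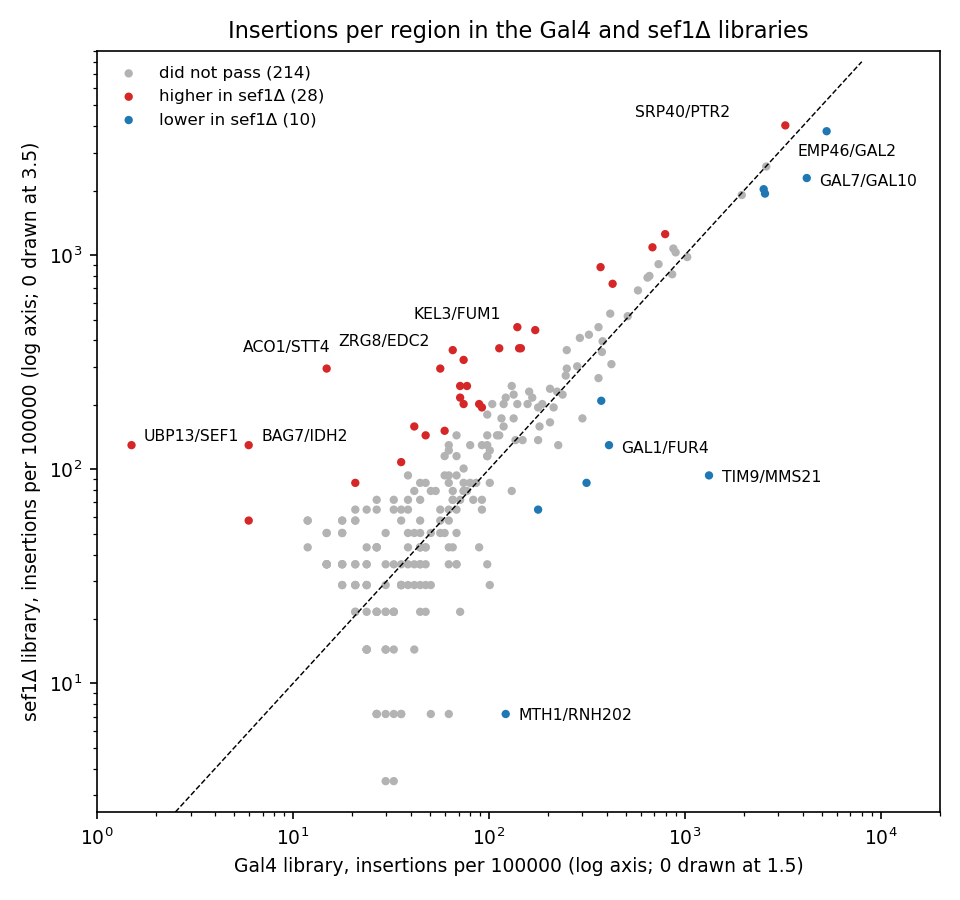
Insertions per 100000 in the Gal4 library (horizontal, log axis) against the sef1Δ library (vertical, log axis) for the 252 tested regions, each point a region, with the dashed line at equal shares. The 28 red regions were higher in sef1Δ and the 10 blue regions lower by Fisher's exact test; ACO1/STT4 rose from 14.9 to 295 per 100000 and TIM9/MMS21 fell from 1329 to 93.6.

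The promoters of 3 citric acid cycle enzymes held more insertions in sef1Δ. The ACO1/STT4 region (chromosome XII, 737548 to 738161), which holds the promoter of the aconitase gene ACO1, had 5 insertions in the Gal4 library, 41 in sef1Δ, 1 in yrm1Δ, 1 in hmo1Δ and 3 in leu3Δ. Only the sef1Δ library was high there. The ratio to Gal4 was 19.9 (7.86 to 64.4), with an adjusted p of 2.53e-15 (two-sided Fisher's exact test). Set against the background set of insertions that the authors deposited beside each library, this region lay at 0.483 times its background share in the Gal4 library and at 16.6 times in sef1Δ. The 2 background sets differ, with 32 insertions at this region for Gal4 and 15 for sef1Δ, so part of that contrast comes from the backgrounds.

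IDH2 encodes a subunit of the mitochondrial isocitrate dehydrogenase, and its promoter lies in the BAG7/IDH2 region (chromosome XV, 579793 to 580250). That region had 2 insertions in the Gal4 library, 18 in sef1Δ, 0 in yrm1Δ, 1 in hmo1Δ and 1 in leu3Δ. The ratio to Gal4 was 21.8 (5.22 to 194), with an adjusted p of 5.42e-07 by Fisher's exact test. Here too the sef1Δ library stood alone. Both regions reached the minimum of 10 insertions only through the sef1Δ library, as did 5 of the 28 higher regions in all, so that they could be tested only if they were high there.

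FUM1 encodes fumarase, and the KEL3/FUM1 region (chromosome XVI, 46506 to 47336) holds the promoters of both its flanking genes. It had 47 insertions in the Gal4 library, 64 in sef1Δ, 25 in yrm1Δ, 4 in hmo1Δ and 3 in leu3Δ. The ratio to Gal4 was 3.30 (2.23 to 4.92), with an adjusted p of 1.89e-08 by Fisher's exact test. Per 100000, the sef1Δ library was highest, followed by yrm1Δ and then by Gal4.

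Other promoters of the cycle did not pass. Those of citrate synthase CIT1 (20 insertions in Gal4, 13 in sef1Δ) and of malate dehydrogenase MDH1 (24 and 10) had ratios of 1.58 (0.72 to 3.33) and 1.01 (0.431 to 2.19). Over the list of 18 citric acid cycle genes, 17 had a region and 5 of these were tested, among them ACO1 and IDH2, which had to be high in sef1Δ to be tested. Without these, 1 of 3 tested regions was higher and 0 lower, with a median ratio of 1.58 against 1.18 over all tested regions. Pooled, the list held 110 insertions in Gal4 and 155 in sef1Δ, a ratio of 3.42 (2.66 to 4.4). That ratio was 2.63 (2.0 to 3.46) without ACO1, 2.26 (1.69 to 3.01) without ACO1 and IDH2, and 1.38 (0.868 to 2.18) without ACO1, IDH2 and FUM1, so the pooled value rested on these 3 promoters.

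**Figure D2:**
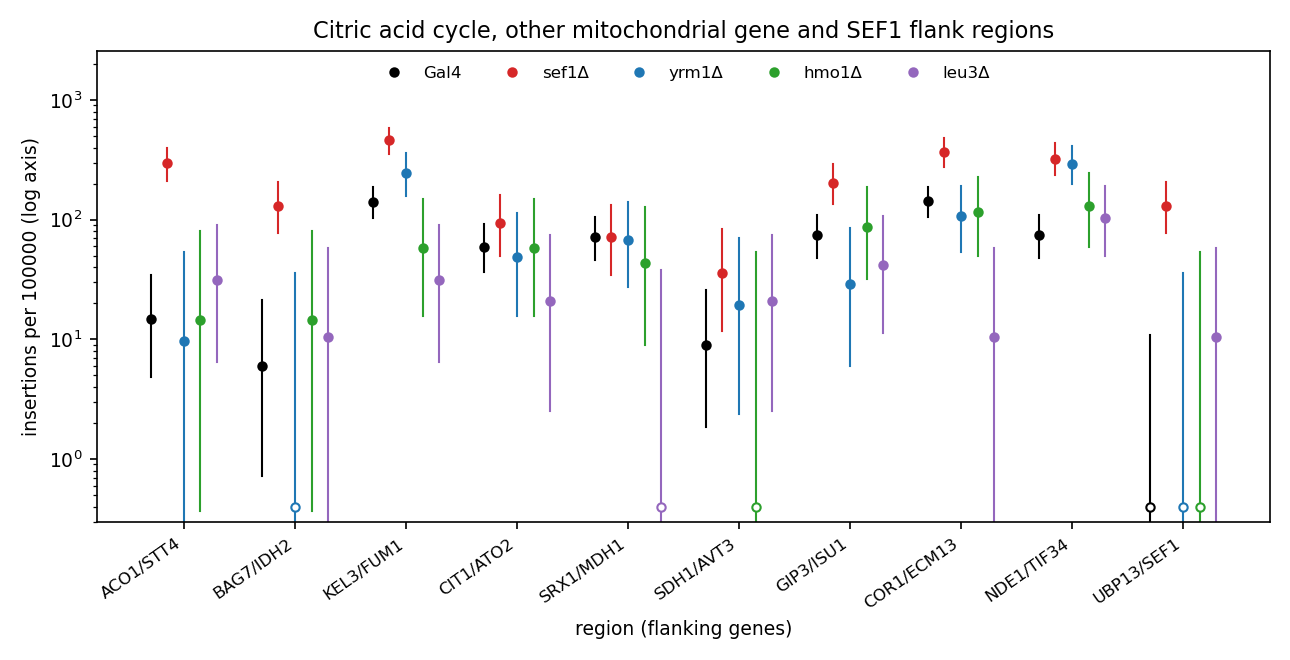
Insertions per 100000 (log axis) at citric acid cycle, iron-sulfur and respiratory promoters and at the region beside SEF1, for the Gal4, sef1Δ, yrm1Δ, hmo1Δ and leu3Δ libraries, with 95% counting intervals; open points stand for 0 insertions and are drawn near the bottom of the axis. The sef1Δ point is the highest of the 5 at each region shown, at 295 per 100000 for ACO1/STT4, and only narrowly so at SRX1/MDH1 and NDE1/TIF34.

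Other higher regions lay beside ISU1, ISA1, COR1 and NDE1, whose products act in mitochondria. No list of mitochondrial genes as a whole was counted. The lower regions TIM9/MMS21, MLF3/MSK1 and PET122/OXA1 also lie beside mitochondrial genes. GIP3/ISU1 (chromosome XVI, 296647 to 297553) holds the promoter of ISU1, the scaffold on which iron-sulfur clusters are built, and was picked out after its values were seen. It had 25 insertions in the Gal4 library, 28 in sef1Δ, 3 in yrm1Δ, 6 in hmo1Δ and 4 in leu3Δ, a ratio of 2.71 (1.53 to 4.85) with an adjusted p of 0.0034 by Fisher's exact test. TPO1/ISA1, with the promoter of ISA1, had 2 insertions in Gal4 and 8 in sef1Δ, a ratio of 9.69 (1.93 to 93.7) with an adjusted p of 0.0108 by the same exact test. TPO1/ISA1 reached the minimum only through the sef1Δ library, and it was not called over background there by the authors' p-value.

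COR1 encodes a core subunit of the cytochrome bc1 complex and NDE1 the external NADH dehydrogenase. COR1/ECM13 (chromosome II, 135516 to 136688) had 48 insertions in Gal4, 51 in sef1Δ, 11 in yrm1Δ, 8 in hmo1Δ and 1 in leu3Δ, a ratio of 2.58 (1.70 to 3.90) with an adjusted p of 5.47e-05 by Fisher's exact test. NDE1/TIF34 (chromosome XIII, 556475 to 557481) had 25 in Gal4, 45 in sef1Δ, 30 in yrm1Δ, 9 in hmo1Δ and 10 in leu3Δ, a ratio of 4.36 (2.62 to 7.42) with an adjusted p of 5.52e-08 by the same exact test. At NDE1 the yrm1Δ library was nearly as high as sef1Δ, whereas at COR1 it was not. These 2 were the only higher regions among 5 tested of the 32 regions of respiratory chain genes, whose pooled ratio was 1.95 (1.51 to 2.51). Without them it was 0.632 (0.354 to 1.07), from 69 insertions in Gal4 and 18 in sef1Δ.

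Iron uptake genes gave too few tested regions to read a count from. The list of 24 iron uptake genes had 19 regions, of which 4 were tested and 0 passed, where 15.1% of all tested regions did, and it held 125 insertions in Gal4 and 51 in sef1Δ, a ratio of 0.989 (0.7 to 1.38). FTR1/LSM5, beside the high-affinity iron permease gene FTR1, had 39 and 24 insertions, a ratio of 1.49 (0.858 to 2.54). AAC1/FET3, beside the multicopper oxidase gene FET3, had 31 and 10, a ratio of 0.782 (0.342 to 1.64).

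The region beside the deleted gene itself held insertions in the sef1Δ library. UBP13/SEF1 (chromosome II, listed from 95882 to 100115), on the side of the 3′ end of SEF1, had 0 insertions in the Gal4 library, 18 in sef1Δ, 0 in yrm1Δ, 0 in hmo1Δ and 1 in leu3Δ. Taking a floor of 3 insertions for the Gal4 library, the share was 14.5-fold higher in sef1Δ. Without the floor, the exact interval of the ratio had a lower limit of 10.7. The adjusted p was 8.55e-09 by Fisher's exact test. The neighbouring SEF1/PRX1 region (listed from 96669 to 100371), which holds the SEF1 promoter, had 1 insertion in Gal4 and 0 in sef1Δ. The listed intervals of these neighbours overlap, as those of 11 neighbouring pairs do in the sef1Δ table, and both run across SEF1. In the authors' wider count of the same regions, UBP13/SEF1 had 18 and SEF1/PRX1 had 10 insertions in sef1Δ, against 1 and 1 in Gal4. The insertions' positions relative to the ends of the deletion cannot be read from counts per region, and no count over the SEF1 coding sequence alone was at hand to check the deletion. At the other deleted genes both libraries were near 0, with 0 insertions in Gal4 and 1 in sef1Δ at GAL4/RBD2, and 1 and 0 at ADK1/SIR4.

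At the galactose genes the share of the fusion's insertions was lower in sef1Δ. The 10 regions that hold the promoters of 11 Gal4 target genes took 4575 insertions (13.6%) in the Gal4 library and 1292 (9.31%) in sef1Δ, a ratio of 0.684 (0.643 to 0.728). All 10 were tested, 6 were lower, 1 was higher and 3 did not pass, and the median ratio was 0.725. Scaled to the median over regions with at least 10 insertions in each library, the pooled ratio was 0.532.

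The region with the most insertions in the Gal4 library was EMP46/GAL2 (chromosome XII, 289250 to 290212), which holds the promoter of the galactose permease gene. It had 1781 insertions in Gal4, 526 in sef1Δ, 539 in yrm1Δ and 493 in hmo1Δ, and its ratio was 0.716 (0.648 to 0.789) with an adjusted p of 9.24e-11 by Fisher's exact test. GAL7/GAL10 (chromosome II, 275527 to 276253), with the promoter of the transferase gene GAL7, had 1410, 318, 343 and 327 in the same order. Its ratio was 0.547 (0.482 to 0.618), with an adjusted p of 1.25e-23 by Fisher's exact test. Next to it, GAL10/GAL1 (278352 to 279021), the shared promoter of the epimerase and galactokinase genes, had 850, 282, 289 and 206 insertions. Its ratio was 0.804 (0.7 to 0.921), with an adjusted p of 0.0103 by the same exact test. Per 100000, sef1Δ was the lowest of these 4 libraries at each of the 3 promoters. Together they held 4041 insertions in Gal4 and 1126 in sef1Δ, a ratio of 0.675 (0.632 to 0.722).

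The remaining members of the galactose list varied. GAL1/FUR4 (chromosome II, 280607 to 281443), beside the uracil permease gene FUR4, fell from 138 insertions to 18, a ratio of 0.316 (0.182 to 0.518) with an adjusted p of 3.92e-06 by Fisher's exact test. SUR7/GAL80, with the promoter of the Gal4 inhibitor, went from 60 to 9 insertions, a ratio of 0.364 (0.159 to 0.737) with an adjusted p of 0.0168 by the same exact test. MTH1/RNH202, with the promoter of the glucose signalling repressor MTH1, had 41 insertions in Gal4 and 1 in sef1Δ. Its ratio was 0.0591 (0.00146 to 0.348), with an adjusted p of 2.29e-04 by Fisher's exact test, and yrm1Δ and hmo1Δ held 6 and 4 insertions there.

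PGM2, the phosphoglucomutase gene at the end of the pathway, went the other way. PGM2/YKU80 had 49 insertions in Gal4, 51 in sef1Δ, 22 in yrm1Δ and 22 in hmo1Δ, a ratio of 2.52 (1.67 to 3.81) with an adjusted p of 6.18e-05 by Fisher's exact test. It was the only region of the list that passed as higher in sef1Δ, and without it the pooled ratio was 0.665 (0.624 to 0.708). The promoters of the galactose sensor GAL3 (61 and 22 insertions), of the aldo-keto reductase GCY1 (122 and 37) and of the cyclin PCL10 (63 and 28) had ratios of 0.874, 0.735 and 1.08 and did not pass.

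**Figure D3:**
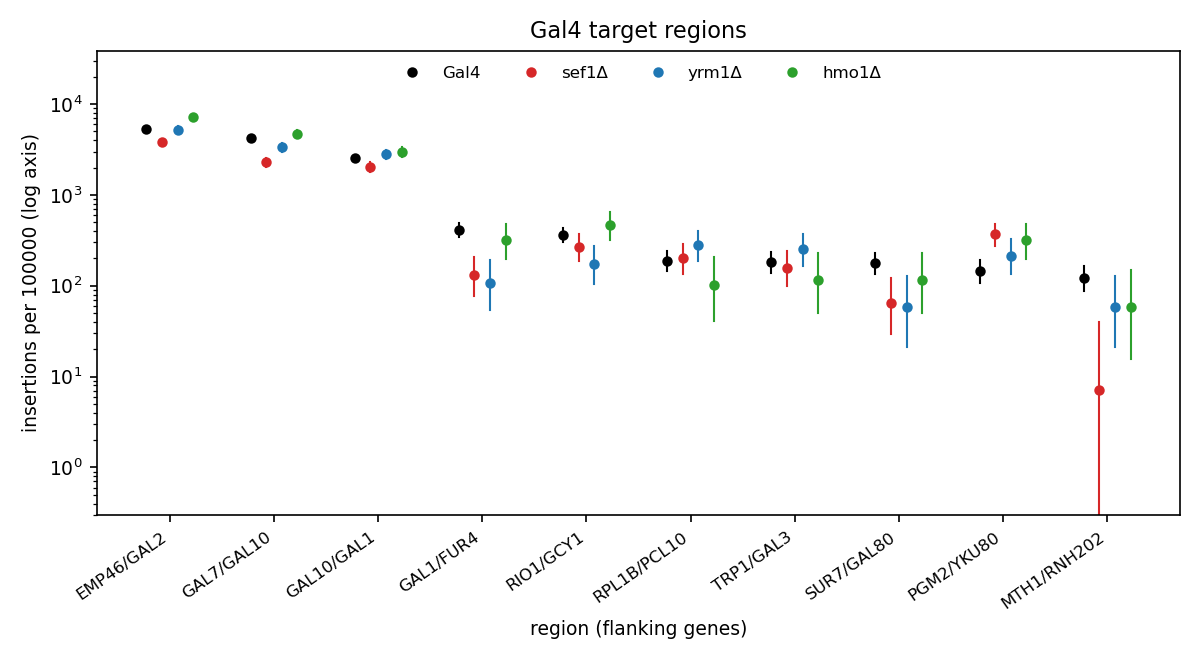
Insertions per 100000 (log axis) at the 10 Gal4 target regions in the Gal4, sef1Δ, yrm1Δ and hmo1Δ libraries, with 95% counting intervals. The sef1Δ points are lowest of the 4 at EMP46/GAL2, GAL7/GAL10, GAL10/GAL1 and MTH1/RNH202, and highest at PGM2/YKU80; at GAL1/FUR4 and SUR7/GAL80 the yrm1Δ points are lower still.

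At several strongly bound promoters outside the galactose genes the interval of the ratio included 1. KTI12/HAP4, with the promoter of HAP4, the activator of respiratory genes, had 876 insertions in Gal4 and 360 in sef1Δ, a ratio of 0.996 (0.879 to 1.13). STP4/SIT4 had 657 and 265, a ratio of 0.978 (0.844 to 1.13), and PCD1/ACS2 had 346 and 136, a ratio of 0.953 (0.775 to 1.16). Of the 12 regions outside the galactose list with the most Gal4 insertions, 7 did not pass, 3 were higher and 2 lower.

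The 3 higher ones were SRP40/PTR2, AHA1/ADR1 and YPR148C/NCE102. SRP40/PTR2 (chromosome XI, 613885 to 615730), with the promoter of the peptide transporter gene PTR2, had 1096 insertions in Gal4 and 560 in sef1Δ. Its ratio was 1.24 (1.12 to 1.37) with an adjusted p of 3.82e-04 by Fisher's exact test, and 0.962 when scaled to the median ratio. AHA1/ADR1, with the promoter of the activator of genes for growth on non-fermentable carbon, had 267 and 174, a ratio of 1.58 (1.30 to 1.92), and YPR148C/NCE102, beside an eisosome gene, had 230 and 151, a ratio of 1.59 (1.29 to 1.96). Each of these 3 had a ratio between 0.948 and 1.0 when sef1Δ was set against yrm1Δ.

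Further higher regions covered promoters of varied function. ZRG8/EDC2, with the promoter of the decapping regulator EDC2, had 22 insertions in Gal4, 50 in sef1Δ, 30 in yrm1Δ and 9 in hmo1Δ, a ratio of 5.51 (3.27 to 9.55). RPL9A/TIP20, beside a ribosomal protein gene, had 19, 41, 25 and 2, a ratio of 5.23 (2.97 to 9.54). SYG1/MET30, with the promoter of the ubiquitin ligase F-box gene MET30, had 38, 51, 24 and 6, a ratio of 3.25 (2.10 to 5.09). At all 3 the sef1Δ share was highest and yrm1Δ next, with Gal4 below both. GTB1/CRF1, with the promoter of a corepressor of ribosomal protein genes, had 24, 34, 9 and 7 insertions, a ratio of 3.43 (1.98 to 6.05). UBC4/TEC1, between a ubiquitin-conjugating enzyme gene and the filamentation factor TEC1, had 14, 22, 9 and 4, a ratio of 3.81 (1.86 to 8.05). It lay at 0.264 times its background share in Gal4 and 0.798 times in sef1Δ, each against that library's own background set. SRT1/YPK2 had 125, 122, 51 and 46, a ratio of 2.37 (1.83 to 3.06). The adjusted p by Fisher's exact test ran from 9.92e-11 at ZRG8/EDC2 to 6.80e-04 at UBC4/TEC1 among these 6. Of the 28 higher regions, 27 hold a promoter, the exception being BCD1/SRB2 with 26, 34, 32 and 0 insertions. Nearly all tested regions hold one, since only 12 of the 252 do not.

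Outside the galactose list, 4 regions were lower in sef1Δ. TIM9/MMS21 (chromosome V, 117474 to 120498), which holds no promoter of its flanking genes but spans RPR1, the RNA gene of ribonuclease P, and PXP1, had 447 insertions in Gal4, 13 in sef1Δ, 7 in yrm1Δ, 1 in hmo1Δ and 1 in leu3Δ. Its ratio was 0.0705 (0.0372 to 0.122), with an adjusted p of 1.49e-47 by Fisher's exact test. MLF3/MSK1 had 106, 12, 6, 2 and 1 in the same order, a ratio of 0.274 (0.137 to 0.50), and PET122/OXA1, beside the mitochondrial insertase gene OXA1, had 126, 29, 13, 7 and 1, a ratio of 0.558 (0.359 to 0.841). At these 3 regions the Gal4 library had the highest share of the 5. AGE1/SNA2 had 863, 269, 240, 158 and 15, a ratio of 0.755 (0.656 to 0.867). The share of all regions without a promoter had a ratio of 0.567 (0.481 to 0.665), which became 1.18 (0.981 to 1.42) without TIM9/MMS21.

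Because every difference above shares the Gal4 library, sef1Δ was also set directly against the yrm1Δ and hmo1Δ libraries, which held 10280 and 6932 insertions. Against yrm1Δ, 7 of 177 tested regions were higher (3.95%) and 5 lower (2.82%), and against hmo1Δ, 10 of 157 were higher (6.37%) and 11 lower (7.01%) by the same Fisher's exact test with Benjamini-Hochberg adjustment. Most regions that passed against Gal4 did not pass here. Of the 28 higher ones, 6 of 28 tested were higher against yrm1Δ and 10 of 27 against hmo1Δ. Of the 10 lower ones, 3 of 9 tested were lower against yrm1Δ and 4 of 9 against hmo1Δ. The ACO1/STT4 ratio was 30.4 against yrm1Δ and 20.5 against hmo1Δ, with adjusted p of 6.19e-07 and 3.07e-05 (Fisher's exact test). At BAG7/IDH2 the adjusted p was 0.00152 and 0.0494 by the exact test, and at UBP13/SEF1 it was 0.00152 and 0.00806. COR1/ECM13 had ratios of 3.43 and 3.18, with adjusted p of 0.00152 and 0.00806 by the exact test. These 4 regions were thus higher in sef1Δ than in each of the Gal4, yrm1Δ and hmo1Δ libraries. The same sef1Δ counts enter each of these comparisons, which are therefore not independent of one another. ACO1/STT4, BAG7/IDH2 and UBP13/SEF1 again reached the minimum for a test only through the sef1Δ library, as did COR1/ECM13 against hmo1Δ (8 insertions).

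Other regions passed against one of the deletion libraries and not the other. KEL3/FUM1 had ratios of 1.90 and 7.99 against yrm1Δ and hmo1Δ, with adjusted p of 0.0873 and 2.83e-06 by Fisher's exact test. GIP3/ISU1 had 6.91 and 2.33, with adjusted p of 0.00209 and 0.255 by the same exact test. NDE1/TIF34 passed against neither, with ratios of 1.11 and 2.5. Nor did PGM2/YKU80, with ratios of 1.72 and 1.16 and adjusted p of 0.324 and 0.844 by Fisher's exact test. KTI12/HAP4, level with Gal4, was higher than in yrm1Δ by 1.33 (1.12 to 1.59), with an adjusted p of 0.0161 by Fisher's exact test. RAD54/SUT1, beside the sterol uptake factor gene SUT1, was lower in sef1Δ than in yrm1Δ, with 20 and 38 insertions, a ratio of 0.390 (0.215 to 0.687) and an adjusted p of 0.00854 by the exact test.

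Against the same libraries the main galactose promoters were also lower in sef1Δ. The ratios to yrm1Δ were 0.723 at EMP46/GAL2, 0.687 at GAL7/GAL10 and 0.723 at GAL10/GAL1, with adjusted p of 5.94e-06, 6.30e-05 and 0.00209 by Fisher's exact test. The ratios to hmo1Δ were 0.533, 0.486 and 0.684. The pooled list stood at 0.742 (0.687 to 0.802) against yrm1Δ and 0.571 (0.527 to 0.619) against hmo1Δ. GAL1/FUR4 and SUR7/GAL80 did not follow against yrm1Δ, with ratios of 1.21 and 1.11. Against hmo1Δ their ratios were 0.409 and 0.562, with adjusted p of 0.0494 and 0.600 by Fisher's exact test. TIM9/MMS21, MLF3/MSK1 and PET122/OXA1 had ratios of 1.38, 1.48 and 1.65 against yrm1Δ, above 1 where the ratios to Gal4 were below it. The leu3Δ library held only 395 insertions per 100000 at the galactose list, against 9307 in sef1Δ, and it was not used as a reference.

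Libraries of 11 other zinc cluster factors, in strains that keep SEF1, held few insertions at 4 of the regions that rose. Taking as called a region with an authors' hypergeometric p of 0.001 or less and at least 5 insertions, ACO1/STT4, BAG7/IDH2, KEL3/FUM1 and UBP13/SEF1 were called for none of the 11. Most regions are alike in this, since 3861 of the 4383 shared regions were called in none of the 16 libraries. The shares of the 11 libraries ran from 8.41 to 32.0 per 100000 at ACO1/STT4, from 0 to 33.4 at BAG7/IDH2, from 5.6 to 76.5 at KEL3/FUM1 and from 3.53 to 33.7 at UBP13/SEF1. The Gal4 fusion in sef1Δ stood at 295, 130, 461 and 130. These 4 regions were picked as high in sef1Δ, so the lower shares elsewhere are no separate result. GIP3/ISU1 was different, since it was called for Yrm1 and Yrr1 and reached 2793 per 100000 in the Yrr1 library. SRT1/YPK2 was called for 6 factors and reached 3702 in the Yrm1 library, and COR1/ECM13 was called for Hal9 alone.

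By that call rule, 78 of the 4383 regions (1.78%) were called in the Gal4 library and 87 (1.98%) in sef1Δ, 68 of them in both, which is 87.2% of the Gal4 calls and 78.2% of the sef1Δ calls. Of the 28 higher regions, 23 were called in sef1Δ and 13 in both libraries, and those not called in sef1Δ were TPO1/ISA1, UBC4/TEC1, CDC25/MRPL15, FCY2/RPL34A and CWP2/CWP1. Among the 19 called in sef1Δ alone, 10 were higher. Of the 10 called in Gal4 alone, 3 were lower, namely MTH1/RNH202, TIM9/MMS21 and SUR7/GAL80. Over all tested regions 11.1% were higher and 3.97% lower. Calls and tests used the same insertions, so regions called in one library alone were already chosen for a high count there. Their counts of higher and lower regions are therefore no separate result.

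Gal4-bound regions were also chosen in libraries outside the comparison. The 67 regions called in yrm1Δ had a pooled ratio of 1.05, with 16 higher and 5 lower, and the 56 called in hmo1Δ, 53 of them tested, one of 0.976 (0.945 to 1.01), 8 being higher and 7 lower. The galactose list left out, 61 regions called in yrm1Δ remained, with 15 higher, 2 lower, a median ratio of 1.30 and a pooled ratio of 1.21 (1.17 to 1.25), which became 0.941 when scaled to the median over regions with at least 10 insertions in each library. The 3861 regions called in none of the 16 libraries had a pooled ratio of 0.954 (0.889 to 1.02), and of 62 tested among them 2 were higher and 0 lower. This last group was chosen partly in the Gal4 and sef1Δ libraries themselves. Regions called in either were removed, so a low count of passing regions is partly built in.

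The ratio over all shared regions was 1.03 (1.01 to 1.06), and 15.1% of all tested regions passed in either direction. With the Gal4 targets left out the ratio was 1.14 (1.11 to 1.17), and the other gene lists may be read against both values. Genes of glycolysis and fermentation (280 insertions in Gal4, 131 in sef1Δ) had a ratio of 1.13 (0.914 to 1.40), and hexose transporters (114 and 54) one of 1.15 (0.815 to 1.60), with 0 regions passing in either. Gluconeogenesis genes (90 and 40) had 1.08 (0.723 to 1.58), and ribosomal protein genes (423 and 181) had 1.04 (0.866 to 1.24) with 1 of 7 tested regions higher. Drug resistance genes (149 and 92) stood at 1.5 (1.14 to 1.95), with 1 of 5 tested regions higher, PDR16/ELA1, beside a phospholipid transfer gene. Nutrient permeases (1407 and 703) had 1.21 (1.10 to 1.33), which was 1.11 (0.908 to 1.36) without PTR2 and 0.941 for the list when scaled to the median. Genes of zinc cluster factors, 39 regions in all with the deleted GAL4 and SEF1 among them, held 72 and 33 insertions, a ratio of 1.11.

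**Figure D4:**
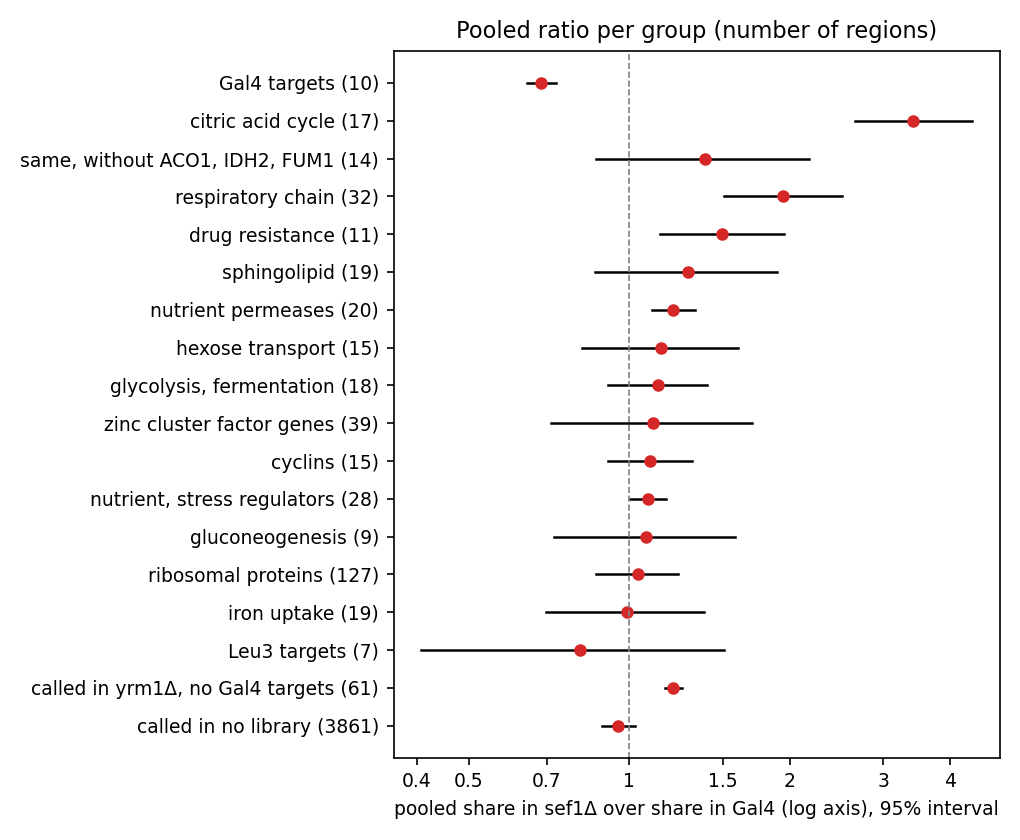
Pooled share in sef1Δ over the share in Gal4 (log axis) for gene lists and region groups, with the number of regions in brackets and 95% counting intervals as lines. The Gal4 targets lie at 0.684 and the citric acid cycle list at 3.42, with 1.38 once ACO1, IDH2 and FUM1 are left out.

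Regions were also grouped by position. Those called in no Gal4 library had ratios between 0.835 and 1.29 over the 16 chromosomes, and 0 of these intervals excluded 1. That choice had already removed the regions called in either compared library. Regions within 30 kb of a chromosome end held 332 insertions in Gal4 and 175 in sef1Δ, a ratio of 1.28 (1.06 to 1.54), with 0 of 9 tested regions passing. Regions with 1 and with 2 promoters had ratios of 1.03 and 1.07. ADH1/PHM7, whose ADH1 promoter is also on the plasmid, had 35 and 28 insertions, a ratio of 1.94 (1.14 to 3.28) with an adjusted p of 0.0677 by Fisher's exact test.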

How the data were processed

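Per the labels' protocols, DNA was cut in 3 digests and insertion sites were read by inverse PCR. Novoalign and sacCer2 are the tool and build listed in the submitters' processing notes, with no version. Coordinates are those of the sef1Δ table. The authors deposited, per region between neighbouring genes, the insertion count of the library and that of a background set, both also as a fraction of all insertions, and a hypergeometric p-value. Recomputed from the counts, the deposited p-value differed by at most 3.26e-08. The background held 103922 insertions in the Gal4 table and 84109 in the others, and across shared regions they correlated with r = 0.939.

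Regions were joined on both flanking genes, with 4532 regions in the Gal4 table and 4748 in that of sef1Δ. Of the shared regions, 2661 had no insertion in either library, 846 (19.3%) hold another gene between the flanking ones and 22 differ in length by over 20 bp. Regions whose insertions in the 2 libraries summed to 10 or more went into Fisher's exact test (two-sided) with Benjamini-Hochberg adjustment at 0.05, 69 having an unadjusted p under 0.05. Ratios have exact conditional 95% intervals, and a floor of 3 insertions stands for 0. Gene lists stand for the regions holding their genes' promoters. Tests were checked on simulated data. The alternatives covered the scaling, the minimum, the threshold, thinning to equal depth, region length, background, the reference library and the authors' wider counts.

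Regions named are those of the Gal4 targets, of deleted genes and plasmid sequences, the 12 strongest others, the 12 with the intervals farthest from 1 in each direction and up to 4 per list. GIP3/ISU1, SRT1/YPK2, DOT6/PTC2, CDC25/MRPL15, FCY2/RPL34A and CWP2/CWP1, outside these, were named after their values were seen. Members and lists were chosen with earlier results of these data known. Insertions recovered by PCR carry no molecular tags, so intervals cover counting error only. Python 3.11.15, numpy 2.4.6, scipy 1.17.1, pandas 2.3.3 and matplotlib 3.10.9 were used.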

Additional observations from a re-analysis of the deposited data

How the results depend on the processing

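No paired analysis was possible because each group had 1 library. Scaled to the median ratio, 17 regions were higher and 21 lower, and the pooled ratios were 0.532 for the Gal4 targets and 2.65 for the citric acid cycle. That scaling turned SRP40/PTR2 to 0.962, regions called in yrm1Δ to 0.817, or 0.941 without Gal4 targets, nutrient permeases to 0.941 and nutrient and stress regulators to 0.845. Scaled to shared regions, or to those called in neither library, regions called in yrm1Δ stood at 1.02 and 1.01. Without the tenth of regions with most background, 69 regions could be tested, of which 13 were higher and 4 lower. The ratios were then 0.877 for Gal4 targets, 1.21 for regions called in yrm1Δ and 4.42 for the citric acid cycle. They were 0.733 for the respiratory chain, with NDE1 and COR1 left out, and 0.718 for nutrient permeases, with PTR2 left out. Of the Gal4 targets, this setting removed EMP46/GAL2, GAL7/GAL10, GAL1/FUR4, MTH1/RNH202, TRP1/GAL3 and RIO1/GCY1. The 0.877 therefore covers other members than the 0.684 of the whole list.

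With yrm1Δ as the reference, 7 regions were higher and 5 lower, and the ratios were 0.742 for Gal4 targets, 2.55 for the citric acid cycle and 0.990 for nutrient permeases. Regions that turned were BCD1/SRB2 at 0.787, DOT6/PTC2 at 0.918, CDC25/MRPL15 at 0.889, AHA1/ADR1 at 0.999, YPR148C/NCE102 at 0.948, TIM9/MMS21 at 1.38, MLF3/MSK1 at 1.48, GAL1/FUR4 at 1.21, SUR7/GAL80 at 1.11 and PET122/OXA1 at 1.65. With hmo1Δ as the reference, 10 regions were higher, and the ratios were 0.571 for Gal4 targets, 0.924 for regions called in yrm1Δ and 5.16 for the citric acid cycle. FCY2/RPL34A turned to 0.749, TIM9/MMS21 to 6.49, MLF3/MSK1 to 3.00 and PET122/OXA1 to 2.07. The cause of these turns was not tested. The authors' wider counts, an alternative added after the data were seen, gave 42 higher and 16 lower regions and 2.36 for the citric acid cycle.

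A minimum of 5 gave 29 higher and 10 lower regions, a minimum of 20 gave 27 and 12, a threshold of 0.01 gave 21 and 7, and thinning the Gal4 library gave 23 and 9 of 189. Depth limits regions with few insertions: 57 tested regions had fewer than 10 in Gal4, of which 5 passed as higher.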

Other observations

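HXT1/HXT5, which holds the promoter of the low-affinity glucose transporter HXT1, had 0 insertions in the Gal4 library and 8 in sef1Δ, under the minimum for a test, with 3 in yrm1Δ and 1 in hmo1Δ. LEU1/PMA1, beside the leucine pathway gene LEU1, had 5 in Gal4 and 0 in sef1Δ. MSN2/CCS1, with the promoter of the stress factor MSN2, had 122 and 64, a ratio of 1.27 (0.924 to 1.73) that did not pass.

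Regions called for the 11 other factors were pooled by factor. The ratio of sef1Δ to Gal4 was highest, at 1.89 (1.5 to 2.37) over 25 regions called for Cha4, the activator of serine and threonine breakdown. Of 5 tested regions there, 1 was higher, DOT6/PTC2, where 11.1% of all tested regions were. DOT6/PTC2 alone held 58 of the group's 181 insertions in Gal4 and 62 of its 141 in sef1Δ. The ratio was 1.40 (1.28 to 1.52) over 80 regions called for the drug resistance factor Yrr1 and 1.35 (1.28 to 1.43) over 105 called for Yrm1. It was 1.25 for Hal9, 1.21 for Urc2, 1.18 for Aro80, 1.18 for Leu3, 1.17 for Lys14, 1.13 for Tea1 and 1.03 for Put3. The 62 regions called for Cat8, the activator of gluconeogenesis genes, had 0.906 (0.863 to 0.951), which was 1.2 (1.13 to 1.28) without EMP46/GAL2 and GAL7/GAL10. Without GAL1/FUR4 the value for Urc2 was 1.30 (1.18 to 1.43). Over all shared regions outside the Gal4 targets the ratio was 1.14 (1.11 to 1.17).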
